A study of Bos taurus with 20 samples.

Results

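The Kruppel-like factors examined here were KLF2, KLF3, KLF4, KLF5, KLF6, KLF7, KLF9, KLF10, KLF11 and KLF15, 10 of the 33063 named genes in the count table, taken by gene symbol and followed across all 20 clones. Bulk RNA sequencing had been performed on clonal populations of bovine mesenchymal stem cells (MSCs), each grown from a single sorted cell of the visceral (inguinal or perirenal) fat of a calf in medium with serum and bFGF, and harvested undifferentiated. A set of 10 adipogenic (A) clones formed adipocytes in repeated differentiation tests and were picked for high lipid staining, while 10 non-adipogenic (N) clones did not form adipocytes. Animals 22 and 23 contributed 4 clones of either kind and animals 17 and 20 a single pair, with 1 library per clone. No treatment, transgene or deletion separated the groups, so the comparison asked how Kruppel-like factor transcripts differed between clones that could and could not become adipocytes before any adipogenic stimulus was given.

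Kruppel-like factors are transcription factors with conserved zinc fingers that bind GC-rich promoter elements, and their differing amino-terminal parts recruit corepressors or coactivators. In rodent pre-adipocytes KLF4 acts early and induces CEBPB. KLF5, KLF6, KLF9 and KLF15 promote differentiation too, and KLF2, KLF3 and KLF7 restrain it. KLF10 and KLF11 are known as early response genes of TGF-beta. Several members, KLF2, KLF4, KLF6 and KLF10 among them, also respond quickly to serum, stress or mechanical stimuli.

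Among the Kruppel-like factors, KLF2, KLF3, KLF4 and KLF6 were lower in A clones than in N clones, and none was higher. KLF2 showed the greatest change of these 4, with a level in N clones 2.22 times that in A clones. These 4 genes include both the inhibitors KLF2 and KLF3 and the early pro-adipogenic factors KLF4 and KLF6. The remaining members did not pass the test: KLF5, KLF9 and KLF10 had negative fold changes, KLF7 and KLF11 positive ones, and KLF15 was near the detection limit.

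Levels are given as counts scaled to library size (CPM) after scaling by edgeR's TMM factors, with log2 fold changes of A against N clones from edgeR's quasi-likelihood test with animal as a block and p-values adjusted by the Benjamini-Hochberg method over all 12900 genes that passed a filter on low counts. KLF15 did not pass this filter and the other 9 did. Of these 9, 4 were lower in A clones at an adjusted p under 0.05, against 10.3% of all genes tested, and 0 were higher, against 10.3% of all genes. In either direction 20.6% of all genes were called. The median log2 fold change of the 9 was -0.61, that of all genes tested was -0.01, and 7 of the 9 had a negative value, against 51.2% of all genes. At an unadjusted edgeR p under 0.05 there were 7 of 9. Such p-values were common among all genes: BCAT2, at an unadjusted edgeR p of 0.04996, ranked 4659 of 12900. No Kruppel-like factor separated all A from all N clones, as 0.326% of genes did in either direction and 0.093% did with A clones lower. CPM values of different Kruppel-like factors were not set against each other, since transcript lengths were not used here. Lower transcript levels per cell and fewer expressing cells in a clone cannot be told apart in bulk RNA.

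**Figure D1:**
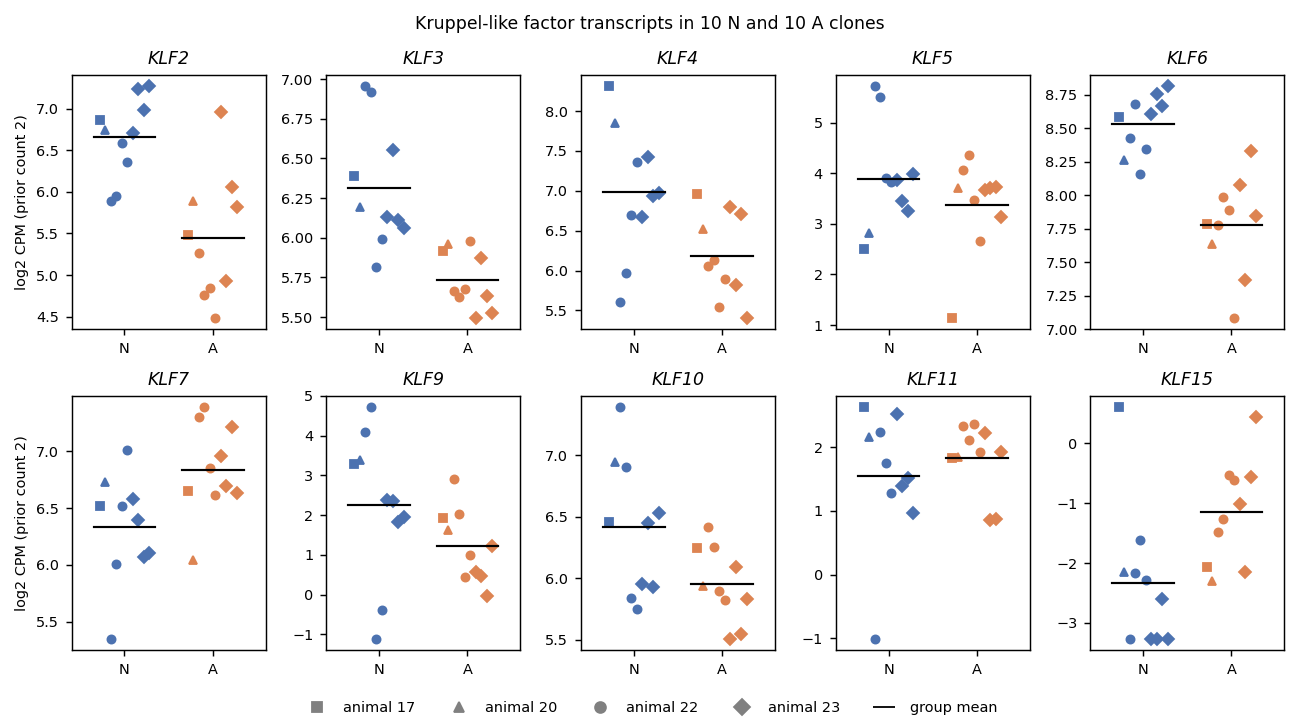
Level of each Kruppel-like factor in every clone, as log2 CPM on the vertical axis with a panel per gene; each point is 1 clone, the marker shape gives the animal and the horizontal bar the group mean (10 N and 10 A clones). KLF6 shows the clearest step, with 9 of 10 A clones below every N clone, whereas KLF5 and KLF11 overlap widely.

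The libraries held 14908802 to 43111345 counts in the N group and 14615493 to 29185355 in the A group. KLF6 rested on at least 2231 counts in every clone, KLF2 on 367, KLF5 on 31, KLF9 on 8 and KLF11 on 7. All 6 MSC markers (ITGB1, CD44, NT5E, ENG, THY1 and PDGFRA) had counts in every clone and 0 of 6 passed the test between groups (edgeR), but N clone 22-5 had only 0.506 CPM of NT5E and 0.393 CPM of THY1. Of the endothelial markers, CDH5 and KDR did not exceed 8 counts in any clone, while PECAM1 reached 16.2 CPM and VWF 30.1 CPM. Of the macrophage markers, PTPRC did not exceed 7 counts, and CD68 reached 6.73 CPM. CSF1R, at most 0.254 CPM in N clones, was at 0.475 to 2.38 CPM in A clones (edgeR adjusted p = 0.00268 in a fit without the filter). CD14 reached 6.55 CPM in 1 N clone, with a median of 0.135 CPM in N and 0.951 CPM in A clones. In the same fit CD14 was higher in A clones (log2 fold change 2.75, edgeR adjusted p = 0.0417), though not in animals 17 and 20. N clones 22-5 and 22-9 stood apart by mesothelial markers, which summed to 9152 and 6482 CPM there, against at most 1092 CPM elsewhere. Results for the Kruppel-like factors are therefore also given without those clones, an alternative chosen after seeing the data. This removal was from the N group only. A clones 22-11, 22-16 and 23-62, with mesothelial sums of 1092, 936 and 385 CPM, were kept. Those fits therefore do not compare groups matched for mesothelial markers.

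KLF2 represses the PPARG promoter in pre-adipocytes and is best known as a flow-responsive gene of endothelium. N clones held 59.4 to 155 CPM (median 106) and A clones 22.3 to 124 CPM (median 41.4). The A group lay low apart from clone 23-14, the only A clone above 66.5 CPM, and 8 of 10 A values were under the lowest N value. The mean fell from 105.9 ± 32.7 to 49.7 ± 30.2 CPM (SD, n = 10 each), a log2 fold change of -1.15 (standard error 0.198, 95% interval -1.57 to -0.73, edgeR adjusted p = 0.00172). KLF2 was the only Kruppel-like factor past the threshold with at least a 2-fold change, a criterion that 5.76% of genes met. In animal 22, the 4 A clones at 22.3 to 38.4 CPM did not overlap the 4 N clones at 59.4 to 96.2 CPM. In animal 23, A clones ranged from 30.3 to 124 CPM and N clones from 104.1 to 155 CPM, an overlap due to clone 23-14. Without that clone the log2 fold change was -1.32 (edgeR adjusted p = 0.000199), and without N clones 22-5 and 22-9 it was -1.20 (edgeR adjusted p = 0.00401).

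KLF3 recruits the corepressor CtBP and has been described as a repressor of CEBPA. N clones spanned 56.2 to 124 CPM (median 71.4) and A clones 45.0 to 63.1 CPM (median 50.8). The A clones were tightly grouped, with a coefficient of variation of 12.7% against 28.9% in N clones, and 6 of them lay below every N clone. The log2 fold change was -0.61 (standard error 0.139, edgeR adjusted p = 0.00711). The highest N values were those of the mesothelial-marker clones 22-5 (124 CPM) and 22-9 (120.8 CPM). Without both, the log2 fold change was -0.40 and still past the threshold (edgeR adjusted p = 0.0158).

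KLF7, described as an inhibitor of adipogenesis, pointed the other way from KLF2 and KLF3. N clones held 40.7 to 129 CPM (median 88.0) and A clones 65.8 to 167 CPM (median 109.7), with 3 A clones above every N clone. The log2 fold change of 0.48 (standard error 0.196, 95% interval 0.06 to 0.89) missed the threshold, at an edgeR adjusted p of 0.0903. In animal 23 all 4 A clones (98.8 to 148 CPM) lay above all 4 N clones (66.9 to 95.6 CPM), a pattern that 10.2% of genes tested showed in this animal. In animal 20, the A clone at 65.8 CPM lay below the N clone at 105.9 CPM. Animal 20 had no other clones, so with animal as a block leaving out either clone is nearly the same check. It brought KLF7 past the threshold (edgeR adjusted p of 0.0348 in both cases). Leaving out N clone 22-18, the highest N value, did so as well (edgeR adjusted p = 0.0453). Without N clones 22-5, the lowest N value, and 22-9 the log2 fold change was 0.30 (edgeR adjusted p = 0.215).

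KLF4 was the widest-ranging of the called members among N clones. Levels spanned 48.8 to 318 CPM in the N group (median 124) and 42.4 to 125 CPM in the A group (median 68.2). The groups overlapped broadly, with only 2 A clones below every N clone, and the top values were the N clones of animals 17 (318 CPM) and 20 (231 CPM). The A clones of the same animals, at 125 and 91.4 CPM, lay well below them. The log2 fold change was -0.82 (standard error 0.221, edgeR adjusted p = 0.0171). The lowest N values belonged to clones 22-5 and 22-9 (48.8 and 62.6 CPM), and without them the log2 fold change was -1.003 (edgeR adjusted p = 0.0051).

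KLF6 was the Kruppel-like factor with the most complete separation of the groups. This factor, which represses DLK1 in rodent pre-adipocytes, stood at 286 to 450.1 CPM in N clones (median 387) and at 136 to 322 CPM in A clones (median 225). All A clones but 23-68, at 322 CPM, were under the lowest N value. The mean fell from 373 ± 55.1 to 225 ± 52.5 CPM (SD, n = 10 each), a log2 fold change of -0.73 (standard error 0.124, edgeR adjusted p = 0.00168), and -0.68 without N clones 22-5 and 22-9 (edgeR adjusted p = 0.00643). A and N clones did not overlap in animal 22 (136 to 254 against 286 to 410.2 CPM) or in animal 23 (165 to 322 against 390 to 450.1 CPM). Such lower, non-overlapping A values occurred in 5.37% of genes in animal 22 and in 7.95% in animal 23, and KLF2 in animal 22 and KLF3 and KLF9 in animal 23 showed them too. DLK1 had 0 counts in all 20 clones, which allows at most 0.0763 to 0.216 CPM depending on the clone's depth, so no change of this target was detectable.

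KLF5, an activator of the PPARG promoter, held 5.54 to 52.6 CPM in N clones (median 14.3) and 2.11 to 20.5 CPM in A clones (median 12.7). Medians were close, and the 2 N clones above every A clone were 22-5 (52.6 CPM) and 22-9 (45.3 CPM). The log2 fold change was -0.58 with a 95% interval of -1.25 to 0.09 (edgeR adjusted p = 0.194), and -0.11 without those clones (edgeR adjusted p = 0.781).

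KLF9, which is induced during the middle phase of adipogenesis and acts on PPARG, had low levels that varied most among N clones. They ran from 0.358 to 26.2 CPM in N clones (median 5.06) and from 0.863 to 7.39 CPM in A clones (median 2.06). In animal 22 the N clones split widely, with 26.2 CPM in 22-9 and 16.8 CPM in 22-5 against 0.662 CPM in 22-18 and 0.358 CPM in 22-17. In animal 23 the A clones at 0.863 to 2.23 CPM did not overlap the N clones at 3.42 to 5.07 CPM. The fitted log2 fold change was -1.58 (standard error 0.564) and missed the threshold (edgeR adjusted p = 0.0552). Within animal 23 alone it was -1.56 and passed (edgeR adjusted p = 0.0322), and without N clones 22-5 and 22-9 it was -0.68 and did not (edgeR adjusted p = 0.502). The call also appeared when N clone 22-17 (edgeR adjusted p = 0.0164), N clone 22-18 (0.0185) or A clone 22-11 (0.0468) was left out.

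KLF15, a glucocorticoid-induced activator of PPARG and of glucose transporter transcription in fat, was barely transcribed in these undifferentiated clones. Counts ranged from 0 to 26 in N clones and from 2 to 34 in A clones, with 0 counts in 4 N clones, and 3 counts corresponded to 0.0763 to 0.216 CPM. Levels were at most 0.224 CPM in N clones apart from clone 23 of animal 17 at 1.41 CPM, with a median of 0.0808 CPM, and 0.0979 to 1.24 CPM in A clones with a median of 0.353 CPM. All A clones lay above all N clones in animal 22 (0.252 to 0.590 against 0 to 0.224 CPM) and in animal 23 (0.122 to 1.24 against 0 to 0.0599 CPM). Of the genes tested, which did not include KLF15, 6.96% and 10.2% did so there. The lowest A clone of animal 23, 23-62, had only 2 counts, under the limit of 3. In animal 17 the A clone, with 2 counts, was the lower, and in animal 20 both clones had 2 counts, under the limit of 3. In a fit without the filter the log2 fold change was 2.04 (standard error 0.775, edgeR adjusted p = 0.0931). It was 2.57 without N clone 17-23 (edgeR adjusted p = 0.0253) and 2.57 without A clone 17-57 (edgeR adjusted p = 0.0241), so this pair of clones from animal 17 decided the call. Either removal leaves the other clone alone in its block, so these fits are nearly the same check. Without N clones 22-5 and 22-9 the log2 fold change was 1.84 (edgeR adjusted p = 0.184).

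KLF10, a TGF-beta-inducible repressor, ranged from 53.7 to 168 CPM in N clones (median 87.6) and from 45.4 to 85.1 CPM in A clones (median 60.4). Again N clones 22-5 (168 CPM) and 22-9 (119.5 CPM) were among the highest, with the N clone of animal 20 at 123 CPM between them. The log2 fold change was -0.52 (standard error 0.188, 95% interval -0.92 to -0.13, edgeR adjusted p = 0.0573), and -0.27 without those clones (edgeR adjusted p = 0.273). Leaving out N clone 22-17 or 22-18 brought it past the threshold (edgeR adjusted p of 0.0271 and 0.0196).

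KLF11, its close relative, showed the least difference. N clones held 0.393 to 6.08 CPM (median 3.01) and A clones 1.71 to 5.05 CPM (median 3.70), with a log2 fold change of 0.14 and a 95% interval of -0.59 to 0.88 (edgeR adjusted p = 0.799). Without N clones 22-5, the lowest of all at 0.393 CPM, and 22-9 it was 0.012 (edgeR adjusted p = 0.983). The counts behind it were 7 to 137 per clone, and the sign of this small difference turned in several alternatives.

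**Figure D2:**
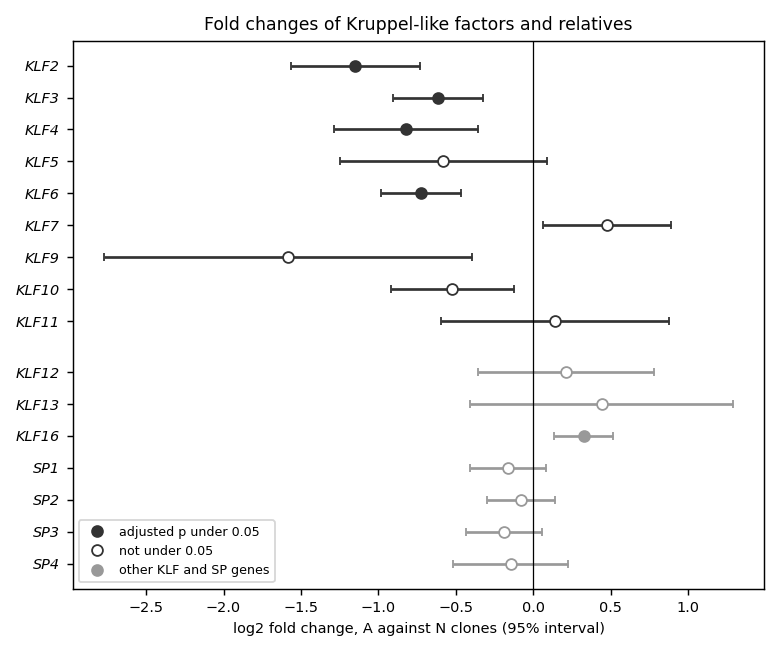
Log2 fold change of A against N clones with its 95% interval for the 9 Kruppel-like factors that passed the filter and 7 other KLF and SP genes (grey); filled points have an adjusted p under 0.05. KLF2, KLF3, KLF4 and KLF6 lie left of 0 with intervals that do not reach it, and KLF9 has the widest interval of the 9. The intervals are not adjusted for the number of genes. Those of KLF7 (0.06 to 0.89), KLF9 (-2.77 to -0.39) and KLF10 (-0.92 to -0.13) do not reach 0 either, with open points.

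Each factor was also tested alone, by permuting the A and N labels within animals over all 19600 arrangements, on the difference between group means of log2 CPM centred within each animal. The two-sided exact permutation p was 0.000102 for KLF6, the smallest these arrangements can give, and 0.000204 for both KLF2 and KLF3. KLF4 followed at an exact p of 0.00806, KLF7 at 0.0235, KLF15 at 0.0268 and KLF10 at 0.0363. KLF5 (exact permutation p = 0.132), KLF9 (0.136) and KLF11 (0.53) gave larger values. These p-values are not adjusted for the number of genes, and clones of the same animal are not separate animals.

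**Figure D3:**
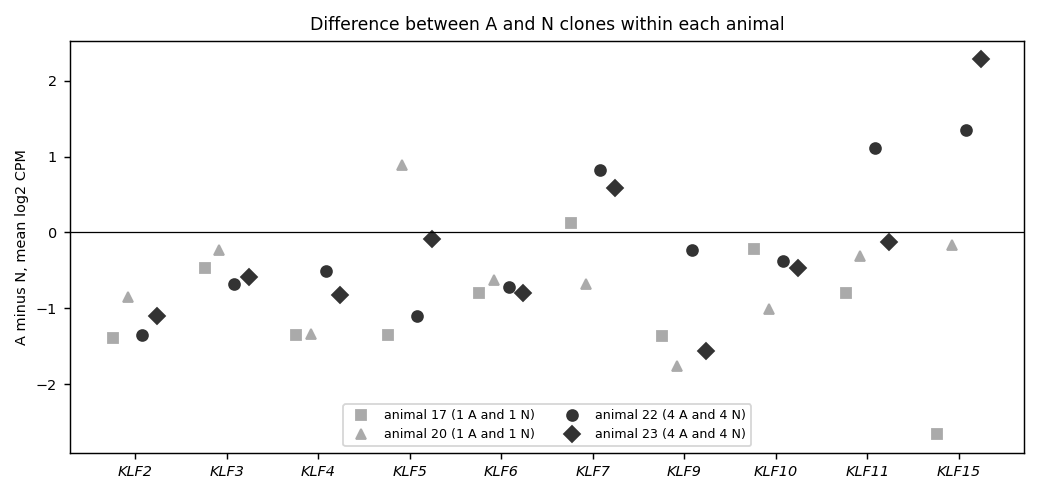
Difference between A and N clones within each animal, as mean log2 CPM of A minus N (vertical axis), for each of the 10 Kruppel-like factors; marker shape gives the animal, and animals 17 and 20 have 1 clone per group. KLF2, KLF3, KLF4, KLF6, KLF9 and KLF10 lie below 0 in all 4 animals, and KLF15 spreads from -2.66 in animal 17 to 2.28 in animal 23.

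Within animals, 6 of the 10 Kruppel-like factors had a lower mean log2 CPM in A clones of all 4 animals. The share of all genes with that pattern was not computed, so this count is a description only. Animals 17 and 20 entered it with 1 clone per group. KLF6 differed by a near-constant amount, from -0.63 in animal 20 to -0.80 in animal 23. KLF2 ranged from -0.86 in animal 20 to -1.39 in animal 17, and KLF4 from -0.50 in animal 22 to -1.35 in animal 17. KLF5 and KLF7 were mixed, with KLF5 at -1.35 in animal 17 and 0.89 in animal 20, and KLF7 at -0.69 in animal 20 and 0.82 in animal 22. Whether the difference depended on the animal was tested as an interaction over the 16 clones of animals 22 and 23. None of the 9 factors passed (edgeR's quasi-likelihood test), where 0.031% of genes did, and 0 of 9 had an unadjusted p under 0.05, against 9.06% of genes. DESeq2 also called 0. The interaction of KLF5 was 1.13 (animal 23 minus animal 22, standard error 0.614, edgeR adjusted p = 0.617) and that of KLF11 -0.88 (standard error 0.778).

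The rest of the KLF and SP family, which shares the zinc-finger domain, was examined next. Of 16 such genes in the table, 7 passed the filter (KLF12, KLF13, KLF16 and SP1 to SP4), with a median log2 fold change of -0.08. KLF16 was the 1 gene of these 7 that changed, rising from 60.3 ± 8.38 to 75.5 ± 11.9 CPM (SD, n = 10 each; log2 fold change 0.33, standard error 0.091, edgeR adjusted p = 0.0195). KLF1, KLF8, KLF14, KLF17, SP5, SP6, SP7, SP8 and SP9 did not pass the filter. In the fit without it KLF17 alone of these passed, higher in A clones (edgeR adjusted p = 0.0133), on 0 to 1 counts in N clones and 0 to 7 in A clones, while SP5 and SP8 had 0 counts throughout, and KLF18 was not analysed here.

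Partners of the Kruppel-like factors were examined as lists, beside the share of 20.6% called among all genes. Of 12 corepressors and coactivators, 3 fell and 0 rose. CTBP1, the KLF3 corepressor, fell by 0.42 on the log2 scale (standard error 0.088, edgeR adjusted p = 0.00509), SIN3A by 0.34 and the acetyltransferase CREBBP by 0.40, while CTBP2 changed by -0.18 and did not pass (edgeR adjusted p = 0.117). Of 6 ubiquitin ligases described for Kruppel-like factors, SMURF2 alone passed, rising by 1.01 (standard error 0.245, edgeR adjusted p = 0.0101), and WWP1, a ligase of KLF2 and KLF5, stood at 0.13 (edgeR adjusted p = 0.236). None of 5 genes of the MAP2K5, MAPK7 (ERK5) and MEF2 route that induces KLF2 and KLF4 passed edgeR's test, and their median log2 fold change was -0.17.

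Adipogenic genes linked to Kruppel-like factors, not all of them targets, moved in both directions. Of 12 listed genes 7 were tested, 1 rose and 3 fell, with a median log2 fold change of -0.43. For genes left out by the filter, the fit without it gave 1.77 for CEBPA (edgeR adjusted p = 0.137) and 2.75 for ADIPOQ (edgeR adjusted p = 0.0175). It gave 0.83 for PRODH (edgeR adjusted p = 0.198) and -1.51 for SLC2A4 (edgeR adjusted p = 0.247). The study listed CEBPA among the genes upregulated in A clones, using DESeq2 with an adjusted p under 0.05 and at least a 2-fold change. It also compared selected transcripts by qPCR in an extended set of clones. CEBPB, which KLF4 induces, fell with KLF4, from 34.99 ± 18.7 to 18.2 ± 8.70 CPM (SD, n = 10 each; log2 fold change -0.89, edgeR adjusted p = 0.00668). CEBPD fell by 0.66 (edgeR adjusted p = 0.0313) and SREBF1, a regulator of lipid synthesis, by 0.92 (edgeR adjusted p = 0.00519). PPARG, on which several members act with opposite sign, rose from 0.933 ± 1.91 to 10.3 ± 5.65 CPM (log2 fold change 3.77, edgeR adjusted p = 0.00486). EGR2, which acts with KLF4 on CEBPB, had a value of 2.21 and did not pass (edgeR adjusted p = 0.0789). THBD, which KLF2 activates in endothelium, rose (log2 fold change 5.88, edgeR adjusted p = 0.0119), and the other 4 tested genes of that vascular list did not pass. Of its genes left out by the filter, NOS3 was higher in A clones in the fit without it (log2 fold change 2.99, edgeR adjusted p = 0.0186). NOS3 had at most 5 counts in any clone. SELE did not pass there (edgeR adjusted p = 0.403).

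Inputs that induce Kruppel-like factors elsewhere were read the same way. Among the TGF-beta pathway components reported, TGFB1 (log2 fold change 1.11) and TGFBR1 (0.77) rose, and SMAD3 (-1.003) and SMAD4 (-0.36) fell. TGFBR2 (0.38), SMAD2 (0.12), SMAD7 (0.24) and SKIL (0.11) did not pass edgeR's test. KLF10 and KLF11 did not pass either. Among 7 tested glucocorticoid response genes, ERRFI1 rose (log2 fold change 1.43) and DUSP1 fell (-0.74), and FKBP5, a standard marker of the receptor, was at 0.85 (edgeR adjusted p = 0.0701).

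Immediate early genes, which are switched on rapidly by serum or stress, were examined as a list too. Of 16 on the list, which shares EGR2 and DUSP1 with the lists above, 8 fell and 1 rose, MYC, with a median log2 fold change of -0.77. FOS fell from 406 ± 192 to 92.6 ± 92.3 CPM (SD, n = 10 each; log2 fold change -2.54, edgeR adjusted p = 0.00251), EGR1 by 2.11 (edgeR adjusted p = 0.0149) and JUN by 1.12 (edgeR adjusted p = 0.00134). Summed over the list, N clones held 1745 to 4362 CPM and A clones 559 to 2649 CPM, and no listed gene was at 0 in any clone. The A clone with the highest sum was 23-14 and that with the lowest was 22-121, which were also the A clones with the highest and the lowest KLF2. Among N clones, 22-5 had the lowest sum and the lowest KLF2 (59.4 CPM). The N clone with the highest sum, 17-23, did not have the highest KLF2 (117 CPM, against 155 CPM in 23-74). The part of the immediate early shift in the fall of KLF2, KLF3, KLF4 and KLF6 was not tested. Cell cycle genes moved too, with 3 of 8 lower and CCND2 higher, and MKI67 fell by 1.77 (edgeR adjusted p = 0.0242). Their part was not tested either. Of the cell type markers, 3 of 5 tested smooth muscle and pericyte genes (MYH11, CSPG4 and NOTCH3), CD68 (the 1 macrophage marker tested) and 1 of 3 mature adipocyte genes (PLIN1) rose. MSLN fell among 6 tested mesothelial genes, and neither of the 2 endothelial genes tested passed edgeR's test. The part of these cell type markers in the results was not tested.

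**Figure D4:**
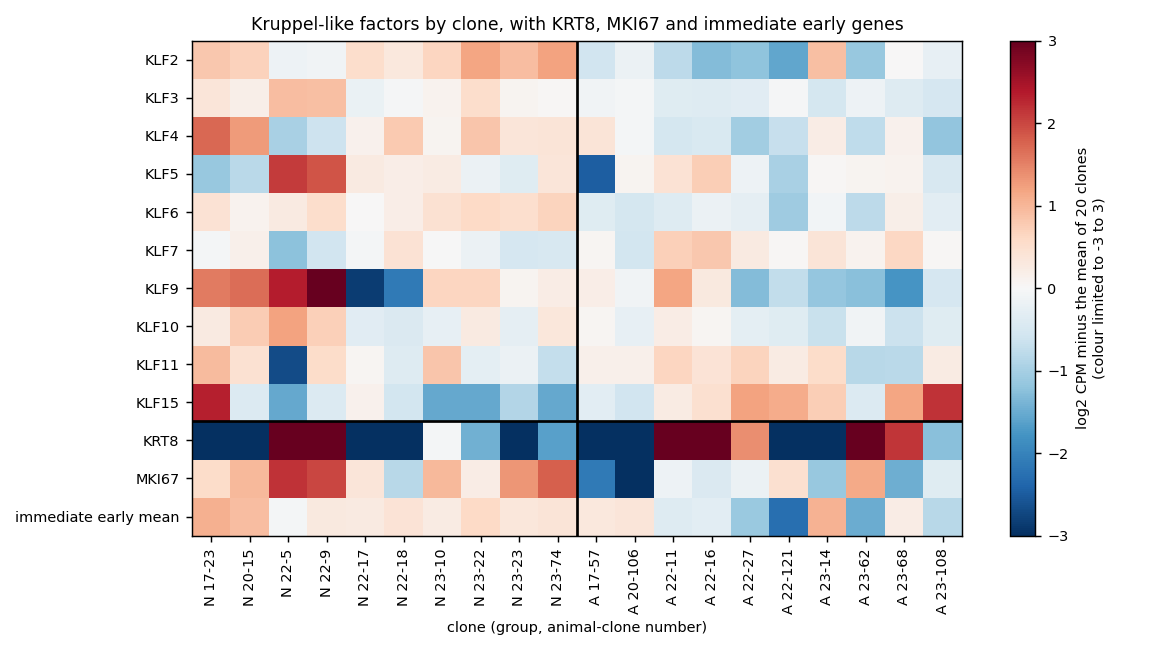
Heat map of the Kruppel-like factors with KRT8, MKI67 and the mean of the immediate early genes (rows) across the 20 clones (columns, N then A); colour is log2 CPM minus the mean over clones, limited to -3 to 3. N clones 22-5 and 22-9 carry the strongest KRT8 together with high KLF5, KLF9 and KLF10, and A clone 23-14 has a high KLF2 for its group.

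Clones of the same animal and condition differed from each other as well, and these deviations were compared between factors over the 16 clones of animals 22 and 23. Of 36 pairs of factors, 0 passed after adjustment over the pairs. The pair with the smallest p was KLF4 and KLF7 (Pearson's r = 0.776, permutation p = 0.00489, adjusted p = 0.176; Spearman's rho = 0.741, permutation p = 0.0103, adjusted p = 0.268). Without the 2 clones farthest from the median its r was 0.583.

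After the data had been seen, the deviations were also set against the immediate early mean, KRT8 and MKI67, 27 relations in all. KLF2 followed the immediate early mean (r = 0.819, permutation p = 0.00321, adjusted p = 0.0274; rho = 0.744, permutation p = 0.00568, adjusted p = 0.0383), and r was 0.586 without A clones 23-62 and 23-14. KLF7 ran against MKI67 (r = -0.810, permutation p = 0.00184, adjusted p = 0.0274; rho = -0.759, permutation p = 0.00493, adjusted p = 0.0383), at r = -0.687 without N clones 22-5 and 22-18. KLF4 did so too (r = -0.802, permutation p = 0.0109, adjusted p = 0.0489; rho = -0.815, permutation p = 0.0101, adjusted p = 0.0448), but without the same clones r was -0.671 with a permutation p of 0.0705. KLF7 also rose with the immediate early mean (r = 0.515, permutation p = 0.00508, adjusted p = 0.0274; rho = 0.656, permutation p = 0.0116, adjusted p = 0.0448; r = 0.653 without those clones). For KLF6 the same relation did not pass (r = 0.783, permutation p = 0.0189, adjusted p = 0.0727; rho = 0.674, permutation p = 0.0293, adjusted p = 0.0988). KRT8 levels fell into separate clusters, so no coefficient is given for it.

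**Figure D5:**
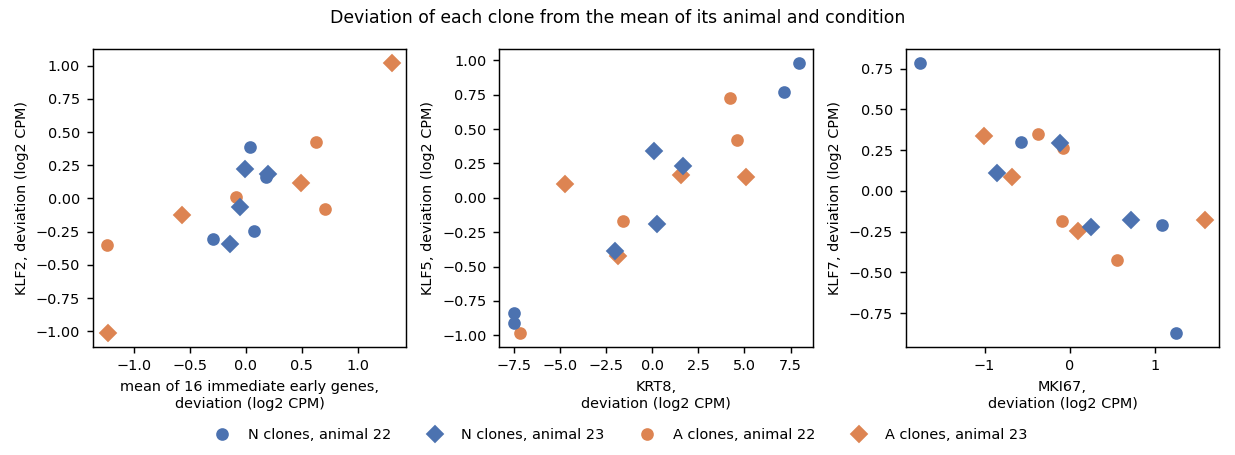
Deviation of each of the 16 clones of animals 22 and 23 from the mean of its animal and condition, in log2 CPM, for KLF2 against the mean of 16 immediate early genes, KLF5 against KRT8, and KLF7 against MKI67; each point is 1 clone, coloured by group. KLF2 deviations rise with the immediate early mean (r = 0.819), KLF7 deviations fall with MKI67 (r = -0.810), and KRT8 values lie in separated sets.

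KRT8, a keratin of simple epithelia and mesothelium, was at 4755 CPM in N clone 22-5, 2715 CPM in N clone 22-9, 584 CPM in A clone 22-11, 445 CPM in A clone 22-16 and 159 CPM in A clone 23-62, and at no more than 13.2 CPM in the other clones. In animal 22, A clones 22-11 and 22-16 also had more KLF5 (16.6 and 20.5 CPM) than A clones 22-27 and 22-121 (11.0 and 6.20 CPM), and more KLF10 (85.1 and 76.3 against 59.5 and 56.6 CPM). KLF9 had the same order, at 7.39 and 3.96 CPM against 1.25 and 1.88 CPM. In animal 23, A clone 23-62 had the most KLF10 of the 4 A clones (67.9 CPM, against 45.4 to 56.9 CPM). It did not stand out for KLF5 (13.0 CPM, against 8.70 to 13.2 CPM) or for KLF9 (1.28 CPM, against 0.863 to 2.23 CPM).

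The gene whose deviations most resembled those of each factor was sought among the 12899 other genes tested, as a description over these 16 clones, with a median absolute r of 0.316 between a factor and any gene. KLF2 was nearest to MCL1 (r = 0.886) and ARHGEF17 (r = 0.880), KLF3 to NXF1 (r = 0.943) and FASN (r = 0.911), and KLF4 to SEPT11 (r = 0.905) and IL15RA (r = 0.884). KLF6 was nearest to LOC112446772 (r = 0.888) and AKAP7 (r = 0.864), and KLF7 to GSTM3 (r = 0.911) and B3GALNT1 (r = 0.908). KLF5 was nearest to NRF1 (r = 0.945) and TIPARP (r = 0.938), KLF9 to PLAU (r = 0.963) and ANO8 (r = 0.960), KLF10 to AGRN (r = 0.963) and GATA5 (r = 0.958), and KLF11 to KHK (r = 0.915) and PDP2 (r = 0.900).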

How the data were processed

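Per the labels, RNA of 20 undifferentiated clones was made into directional libraries and sequenced as paired reads. According to the submitters' processing notes and the study's methods, the authors used bcl2fastq 2.20, trimmed with Trimmomatic 0.36, mapped to ARS-UCD1.2 with STAR 2.5.2b and counted unique reads within exons with Subread 1.5.2. The deposited values are raw counts per gene and clone. The strand setting is not given in the sources used here, so overlapping and antisense genes are uncertain. A row with no gene name, 0.113% to 0.333% of a clone's counts, was left out. The number of columns from outside the series was 0.

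Condition, animal and clone number came from the labels. Counts were fitted with edgeR 4.0.16 in R 4.3.3 (TMM, default expression filter, robust quasi-likelihood F test), with animal as a block. Adjusted p-values are Benjamini-Hochberg values over all genes tested, called under 0.05. Log2 CPM used a prior count of 2. The animal pairs the conditions: deviations from the mean of each condition correlated between A and N at 0.253 (animal 17), 0.192 (animal 20), 0.241 (animal 22) and 0.440 (animal 23). P-values measure the spread between clones, which within an animal are not separate animals. A count of 0 allows 3 counts, which covers counting error only. Members were also tested by exact permutation within animals, and deviations by 100000 permutations within animal and condition. The interaction used animals 22 and 23. Alternatives were DESeq2 1.42.0, limma-voom 3.58.1, other scalings, filters, blocks, animals and clones left out.

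All 10 members are named. Listed genes are described by counts, and named where they passed the threshold or are compared with a member. The 2 genes most like each member are named as a description. The members and lists (KLF and SP family, cofactors, ligases, ERK5 and MEF2, adipogenic, glucocorticoid, TGF-beta, immediate early, vascular and cell cycle genes, and cell type markers) were chosen with earlier results of these data known. The result of 1 listed gene is not reported here. All 10 symbols matched a RefSeq gene of another build, so no coordinates are given.

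On simulated counts with 200 genes changed 4-fold, the A against N test recovered 87.5% with 6 false calls among 12815 genes, and the interaction 62.5% with 4 false calls among 12813 genes. The simulated counts held no animal effect, and the fitted changes of the tested factors were all under 4-fold. These figures therefore do not measure recovery of the factors, or false calls where clones share an animal.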

Additional observations from a re-analysis of the deposited data

Results flagged for a closer look

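Each of the 10 Kruppel-like factors was examined in both groups for a lowest or highest clone far from the other 9, measured on log2 CPM as its gap to the nearest clone over the range of the group. Of 20 groups, 3 exceeded the critical value of 0.466, where chance gives about 1 in 20. The lowest A clone for KLF5 was 17-57 at 2.11 CPM, against 6.20 to 20.5 CPM in the others (ratio 0.469 on log2 CPM and 0.222 on CPM). The lowest N clone for KLF11 was 22-5 at 0.393 CPM, against 1.84 to 6.08 CPM in the others (ratio 0.542 on log2 CPM and 0.255 on CPM). The highest N clone for KLF15 was 17-23 at 1.41 CPM, against 0 to 0.224 CPM in the others (ratio 0.572 on log2 CPM and 0.842 on CPM).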

How the results depend on the processing

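KLF2, KLF3, KLF4 and KLF6 kept their calls with DESeq2 size factors, upper-quartile scaling, no filter, at least 10 counts per clone, limma-voom, no robust dispersion, DESeq2 with the block, and in each of the 20 fits without 1 clone. With edgeR and no replicate block 4 factors were called, so the pairing by animal changed no call there. Without the replicate block in DESeq2, 7 were called (with KLF7, KLF9 and KLF10), and with it 6. Leaving out 1 clone gave 4 to 7 called factors, 7 of them without N clone 22-18. Counts summed per animal and condition gave 0 called factors, with 6 at an unadjusted p under 0.05, and 0 called genes of all, with 2243 at that level. Animal 22 alone (KLF2), animal 23 alone (KLF9), clones of animal 23 left out (KLF2) and a required 2-fold change (KLF2) each gave 1. The first 3 used fewer clones. Except for summed counts and the 2-fold criterion, the share of all genes called in each alternative is not given here. A higher or lower count of called factors is therefore not read as a result about the factors. KLF11 turned negative with summed counts (-0.074), in animal 23 alone (-0.12) and with animal 22 left out (-0.27), and ranged from -0.026 to 0.31 over the fits without 1 clone. The cause of these changes was not tested. The interaction count and the count of correlated pairs were 0 in every alternative run. Depth limits KLF15 and, less so, KLF9 and KLF11.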
